A study of Mus musculus with 14 samples.

Results

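The genes of the MMP, ADAM and ADAMTS proteases and of their TIMP inhibitors were followed through neural stem cell cultures that had kept or lost Cic, with and without epidermal growth factor (EGF). They were chosen by name alone: every symbol of the array's annotation that begins with Mmp or Adam followed by a digit, or with Adamts, and the symbols Timp1 to Timp4. This gave 83 of the 23152 genes that the array names with 1 symbol. Of these 83, 55 lay above the lowest 25% of genes by mean level and were tested, and 28 lay below it and have no test here.

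Matrix metalloproteases (MMPs), ADAMs and ADAMTSs are zinc proteases that act outside the cell or at its surface. MMPs cut collagens and other matrix proteins, membrane-anchored ADAMs shed growth factors, receptors and adhesion molecules, and secreted ADAMTSs cut proteoglycans such as brevican and versican or trim procollagen. TIMPs bind the active sites of many of these enzymes. In the subventricular zone, the niche that lines the lateral ventricles, the cells sit in a matrix rich in such proteoglycans, and ADAM10 and ADAM17 are known there for cutting Notch and for releasing EGF receptor ligands.

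The neural stem cells were taken at postnatal day 4 from the mouse subventricular zone, and each clone was established from its own animal. An adenovirus had brought Cre into all of them, the controls included. Clones 5 to 7 had lost Cic (Cic-/-) and clones 1 to 4 had kept it (Cic+/+). Capicua, the protein made from Cic, is a DNA-binding repressor that signalling from the EGF receptor through ERK relieves. The 4 groups were Cic-/- with EGF (n = 3), Cic-/- without EGF (n = 3), Cic+/+ with EGF (n = 4) and Cic+/+ without EGF (n = 4), each after 24 h in proliferation medium, and every clone was measured in both media. The whole-culture RNA was hybridised to 1 Affymetrix array per culture, 14 in all.

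Cic lay between 7.04 and 7.67 on the log2 scale in the 6 Cic-/- arrays, against 9.18 to 9.69 in the 8 Cic+/+ arrays; the exons that the engineered allele loses are not stated in the labels, so this is a check of the gene's median level only. Array medians ran from 6.49 to 6.54 and correlations between arrays from 0.930 to 0.973. The number of arrays limits the precision. All 13 measured neural stem cell markers lay above the limit for dim genes. The level of the fibroblast and pericyte list, summed over its 8 markers on the linear scale, differed between clones: in log2 it was 12.34 and 12.17 in clone 7 with and without EGF, 11.31 and 11.46 in clone 1, 11.12 and 9.20 in clone 6, and between 9.18 and 9.99 in the other 4 clones. Acta2, smooth muscle actin, led that sum, Dcn and Lum were dim, and Col1a1, Col1a2, Col3a1, Pdgfrb and Rgs5 had mean levels of 6.48, 5.17, 5.04, 5.41 and 5.64. Of the 8 microglia markers Aif1 and Ptprc were dim, and of the 6 endothelial markers Cldn5 and Tek were dim. In RNA from whole cultures, fewer cells of a type and less RNA per cell cannot be told apart.

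By role, all 4 TIMPs, all 6 membrane-type MMPs, all 7 proteoglycan-cleaving ADAMTSs, all 5 ADAMTS-like proteins, both gelatinases, all 3 furin-activated secreted MMPs and 8 of 9 somatic catalytic ADAMs lay above the dim limit of 4.40 on the log2 scale. The 3 non-catalytic neural ADAMs (Adam11, Adam22 and Adam23, whose proteins bind LGI ligands) were also above it. None of the 4 interstitial collagenases (Mmp1a, Mmp1b, Mmp8 and Mmp13) reached it, and only 2 of 20 testis and sperm ADAMs did. The remaining dim members were Adam28, Adamts3, Adamts18, Mmp3, Mmp12 and Mmp20. A dim value is close to the array's background, and the presence or absence of the transcript was not tested. Just below the limit, Adam28 had a mean level of 4.39 over the 14 arrays, and just above it Adam5 had 4.49.

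**Figure D1:**
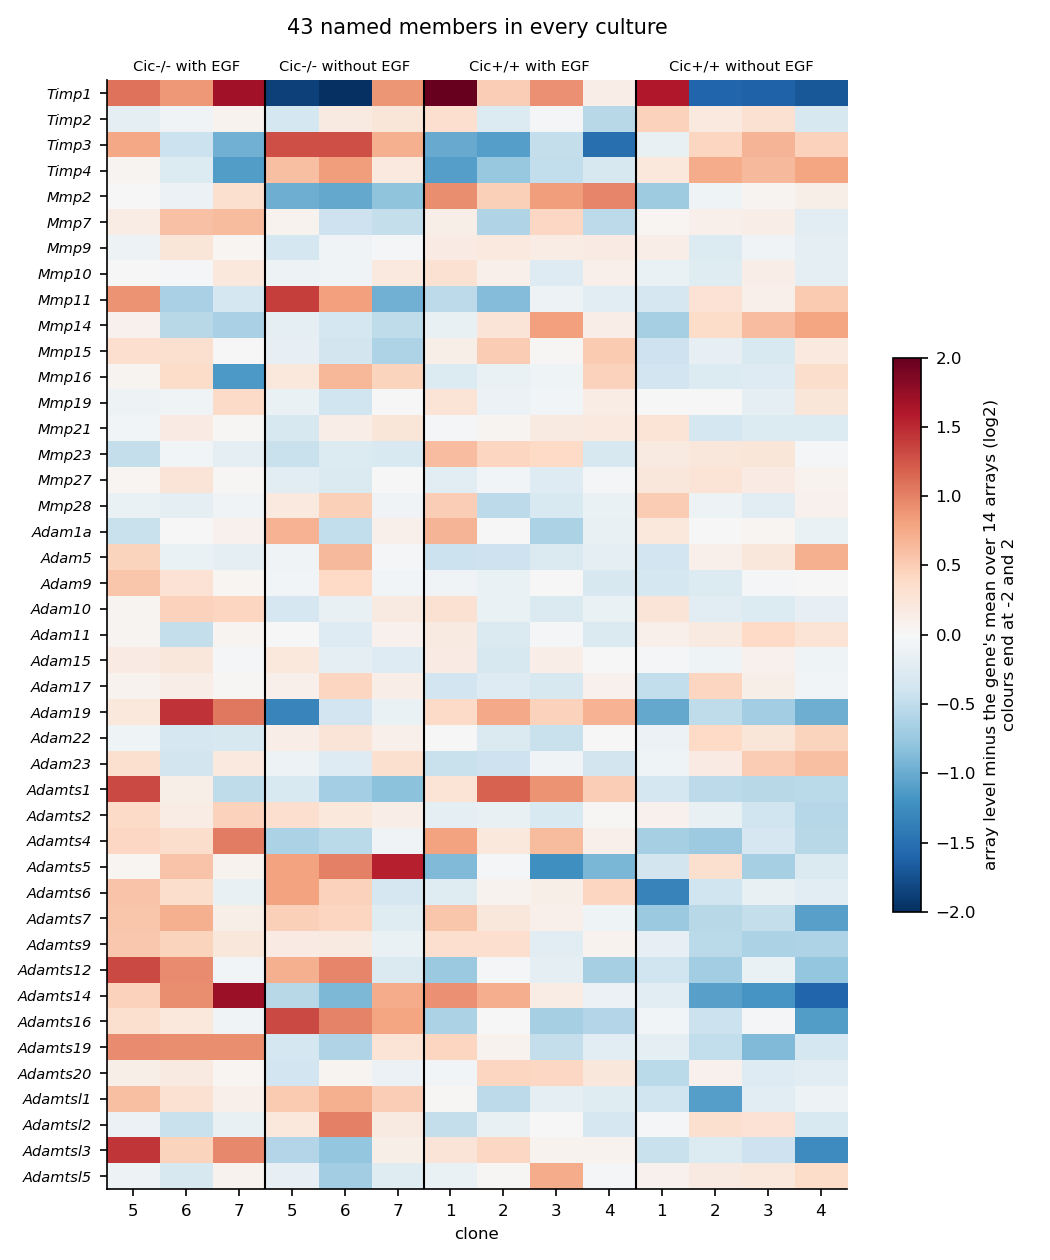
Heat map of 43 proteases and inhibitors (rows, ordered by family) in the 14 cultures (columns, by group and clone number), with colour for the log2 array level minus the gene's own mean over all arrays. Within each clone the column with EGF is redder for Adam19, Adamts4, Mmp2 and Timp1 and bluer for Timp3 and Timp4 than the column without EGF, and Timp1 without EGF is red in clones 1 and 7 but blue in the other 5 clones.

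The first comparison asked what EGF did to these genes in cells with intact Cic. In Cic+/+ clones Adam19, Adamts4 and Mmp2 rose with EGF, by 1.95- to 2.59-fold, and the inhibitor Timp4 fell, to a level 2.41-fold lower. These were 4 of the 55 tested members, and 0.898% of all 17364 genes tested passed in this comparison, 0.305% higher and 0.593% lower. Fold changes and adjusted p-values are from limma over all tested genes, with Benjamini-Hochberg adjustment and a threshold of 0.05. The cultures of a clone with and without EGF come from 1 animal. With the clone as a random block 12 members passed, against 5.17% of all genes (1.97% higher and 3.2% lower): Adamts1, Adamts7, Adamts9, Adamts14, Adamts20 and Adamtsl3 joined the 3 that were higher, and Timp3 and Adam23 joined Timp4 among the lower. Without a block none of the 55 passed once any 1 of clones 1 to 4 was left out, whereas with the remaining clones as a block Adam19, Adamts4, Mmp2 and Timp4 passed whichever of the 7 clones was left out. When each gene was read from its brightest probeset only, Adam19 alone passed, and Adamts4, Mmp2 and Timp4 had adjusted p-values of 0.0825, 0.101 and 0.0911 (limma).

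Adam19, also called meltrin beta, is a membrane protease that sheds neuregulins. Adam19 had log2 levels of 7.61, 8.84 and 8.45 in Cic-/- clones 5 to 7 with EGF, against 6.08, 7.02 and 7.27 in the same clones without it. Adam19 had 7.78, 8.15, 7.86 and 8.09 in Cic+/+ clones 1 to 4 with EGF, against 6.37, 6.89, 6.70 and 6.42 without it. Every culture with EGF lay above every culture without it, in both genotypes. Adam19 rose by 1.37 ± 0.27 (log2, SE) in the Cic+/+ clones, with an adjusted p of 0.0315 by limma, and all 30 of its probesets were higher with EGF.

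Adamts4, an aggrecanase that also cuts brevican, behaved alike. Adamts4 stood at log2 8.80, 8.75 and 9.41 in Cic-/- clones 5 to 7 with EGF, against 7.75, 7.86 and 8.32 in the same clones without it. Adamts4 stood at 9.20, 8.61, 9.03 and 8.49 in Cic+/+ clones 1 to 4 with EGF, against 7.72, 7.66, 8.06 and 7.83 without it. Within each genotype the cultures with and without EGF did not overlap. The rise was 1.01 ± 0.20 in Cic+/+ clones (adjusted p = 0.0315, limma).

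Mmp2 encodes gelatinase A, which degrades denatured and basement membrane collagen. Mmp2 measured 6.27, 6.16 and 6.59 in Cic-/- clones 5 to 7 with EGF, against 5.29, 5.25 and 5.46 in the same clones without it. Mmp2 measured 7.20, 6.75, 7.11 and 7.24 in Cic+/+ clones 1 to 4 with EGF, against 5.55, 6.19, 6.32 and 6.39 without it. Within each genotype, all cultures with EGF were above all cultures without it, and the change in Cic+/+ clones was 0.96 ± 0.19 (adjusted p = 0.0253, limma). Clone 1 had the widest difference between the media, 1.65, against 0.56 to 0.85 in the other 3 Cic+/+ clones.

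Of the inhibitors, Timp4 and the matrix-bound Timp3, which also inhibits ADAM17 and aggrecanases, were lower with EGF in all 7 clones. Timp4 had log2 levels of 10.99, 10.66 and 9.82 in Cic-/- clones 5 to 7 with EGF, against 11.55, 11.77 and 11.13 in the same clones without it. Timp4 had 9.84, 10.18, 10.45 and 10.62 in Cic+/+ clones 1 to 4 with EGF, against 11.16, 11.68, 11.59 and 11.74 without it. The groups with and without EGF did not overlap within either genotype. Timp4 fell by 1.27 on the log2 scale (SE 0.25) in Cic+/+ clones (adjusted p = 0.0295, limma), and none of its 7 probesets was higher with EGF.

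Timp3 was at 10.27, 9.05 and 8.52 in Cic-/- clones 5 to 7 with EGF, against 10.78, 10.77 and 10.20 in the same clones without it. Timp3 was at 8.48, 8.39, 9.01 and 7.98 in Cic+/+ clones 1 to 4 with EGF, against 9.34, 9.92, 10.17 and 9.95 without it. In the Cic+/+ clones the media did not overlap, while in the Cic-/- clones 1 culture with EGF, clone 5, lay above 1 without EGF, clone 7. The Timp3 difference of -1.38 ± 0.33 in Cic+/+ clones missed the threshold without the block (adjusted p = 0.069, limma) and passed with it (0.00787). Markers of astrocytes and of the oligodendrocyte lineage moved with EGF too. Of the 6 astrocyte markers 3 fell in Cic+/+ clones, against 0.593% of all genes lower there. In Cic-/- clones 0 fell, against 0.19% of all genes called in either direction. With the block 4 were lower in Cic+/+ and 2 in Cic-/- clones, against 3.2% and 1.08% of all genes. The summed level of the 6 astrocyte markers was 11.995 to 12.14 in Cic-/- and 11.88 to 12.44 in Cic+/+ cultures with EGF, against 12.56 to 12.72 in Cic-/- and 12.76 to 13.13 in Cic+/+ cultures without it. Aqp4, the astrocyte water channel, fell by 2.28 on the log2 scale in Cic+/+ clones (adjusted p = 0.00379, limma). 

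Of the 7 measured myelinating oligodendrocyte markers 5 fell with EGF in Cic+/+ clones, against 0.593% of all genes lower there. With the block 6 were lower, against 3.2% of all genes. The median difference of the 7 markers was -1.68 (log2). Their summed level was 9.03 to 9.79 in Cic-/- and 9.62 to 9.80 in Cic+/+ cultures with EGF, against 9.32 to 9.59 in Cic-/- and 10.94 to 11.47 in Cic+/+ cultures without it. In Cic-/- clones none of the 7 was called without or with the block, against 0.19% and 2.08% of all genes. The sums overlapped there between the media. Of the 6 oligodendrocyte progenitor markers 1 fell in each genotype. The share of all genes was 0.593% lower in Cic+/+ clones and 0.19% in either direction in Cic-/- clones. With the block 2 were lower in Cic+/+ and 3 in Cic-/- clones, against 3.2% and 1.08% of all genes. The sums of these 6 markers were 12.94 to 13.06 in Cic-/- and 13.20 to 13.34 in Cic+/+ cultures with EGF, against 13.17 to 13.60 in Cic-/- and 13.43 to 13.75 in Cic+/+ cultures without it. The part of astrocyte-like or oligodendrocyte-like cells in the protease and TIMP differences was not tested.

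**Figure D2:**
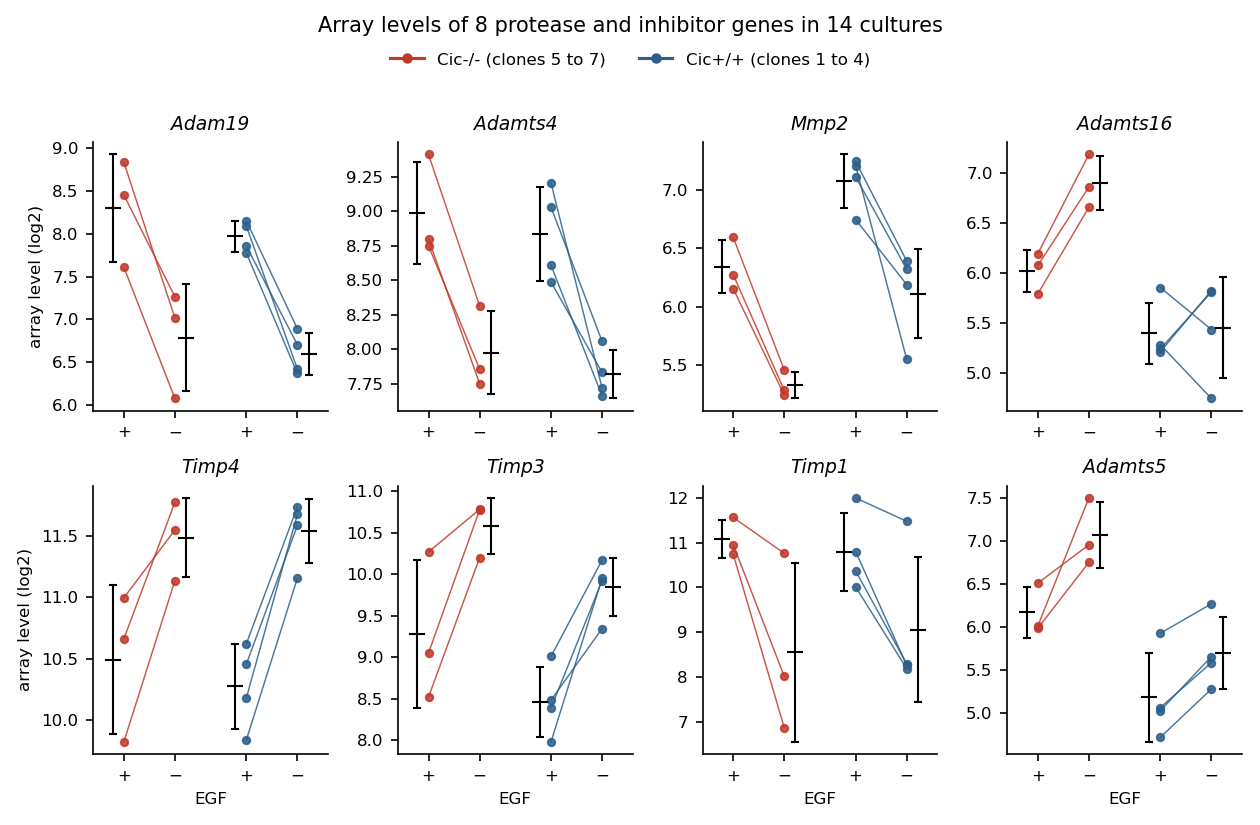
Log2 array level of 8 genes in each culture with EGF (+) and without it (−), Cic-/- clones 5 to 7 in red at the left of each panel and Cic+/+ clones 1 to 4 in blue at the right. Lines join the cultures of 1 clone, and black marks show the group mean and SD (n = 3 for Cic-/- and n = 4 for Cic+/+). Every line for Adam19, Adamts4 and Mmp2 is higher with EGF and every line for Timp3 and Timp4 is lower, and Mmp2 in Cic-/- cultures lies below Cic+/+ cultures in the same medium.

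The promoters of 3 members that were higher with EGF in all 7 clones (Adam19, Adamts1 and Adamts14) and of 2 that were lower (Timp3 and Timp4) are shown so that their letters can be read against these values; Adam19 and Timp4 passed without the block and the other 3 only with it. The RefSeq promoter table used here (build GRCm38.p6) was matched for 52 of the 83 members, and promoters of the 31 others, Mmp2 and Adamts4 among them, were not analysed here. The 250 bases before the start are given 5′ to 3′ for Adam19 (at 2 of its 3 listed starts, chr11:46054252-46054501 and chr11:46055734-46055983, plus strand), Adamts1 (chr16:85803114-85803363, minus strand), Adamts14 (chr10:61273420-61273669, minus strand), Timp3 (chr10:86300162-86300411, plus strand) and Timp4 (chr6:115252206-115252455, minus strand). Capitals mark matches on either strand to the AP-1 site TGANTCA, the capicua octamers TGAATGAA and TGAATGGA, the GC box GGGCGG or the TATA box TATAAA.
Adam19 first start: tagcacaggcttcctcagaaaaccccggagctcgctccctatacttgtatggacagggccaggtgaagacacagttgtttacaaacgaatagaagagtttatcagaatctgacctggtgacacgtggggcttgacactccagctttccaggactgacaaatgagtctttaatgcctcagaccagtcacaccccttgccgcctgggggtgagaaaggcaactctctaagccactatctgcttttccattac
Adam19 second start: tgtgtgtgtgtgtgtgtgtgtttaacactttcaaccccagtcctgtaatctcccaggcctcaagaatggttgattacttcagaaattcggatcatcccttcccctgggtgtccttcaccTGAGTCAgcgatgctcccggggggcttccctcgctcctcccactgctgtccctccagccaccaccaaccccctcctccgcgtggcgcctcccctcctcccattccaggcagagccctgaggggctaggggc
Adamts1: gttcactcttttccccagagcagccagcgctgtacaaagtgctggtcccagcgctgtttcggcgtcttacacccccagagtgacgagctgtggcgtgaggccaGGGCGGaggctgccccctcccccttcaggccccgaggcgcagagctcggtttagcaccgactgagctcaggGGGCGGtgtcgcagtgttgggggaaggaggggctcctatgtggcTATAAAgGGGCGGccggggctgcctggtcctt
Adamts14: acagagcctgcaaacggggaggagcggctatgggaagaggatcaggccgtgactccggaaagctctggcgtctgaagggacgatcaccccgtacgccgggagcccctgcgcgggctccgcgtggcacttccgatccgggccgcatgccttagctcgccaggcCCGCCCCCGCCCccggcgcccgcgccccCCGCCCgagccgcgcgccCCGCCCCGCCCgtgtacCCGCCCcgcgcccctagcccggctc
Timp3: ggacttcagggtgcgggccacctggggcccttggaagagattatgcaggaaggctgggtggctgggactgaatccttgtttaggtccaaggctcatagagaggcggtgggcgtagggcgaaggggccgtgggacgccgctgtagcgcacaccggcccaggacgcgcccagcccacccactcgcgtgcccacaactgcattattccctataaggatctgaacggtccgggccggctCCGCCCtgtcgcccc
Timp4: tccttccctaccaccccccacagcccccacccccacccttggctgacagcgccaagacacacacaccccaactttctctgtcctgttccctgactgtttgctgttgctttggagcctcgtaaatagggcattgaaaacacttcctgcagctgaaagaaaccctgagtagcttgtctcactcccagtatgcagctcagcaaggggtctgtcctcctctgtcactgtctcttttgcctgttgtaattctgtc

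The second start of Adam19 has 1 AP-1 match, beginning at position -131 from the start, and its first start has no match to any of the motifs. The second start was shown because it has this match, and the third listed start, not shown, has no match to any of the motifs. Adamts14 has 6 GC boxes and Adamts1 has 3 with 1 TATA box, whereas Timp3 has 1 GC box and Timp4 has no match. Over all 57 member windows searched, 11 (19.3%) held an AP-1 match, against 6.75% of the 32851 windows of the same length in the table. Most of those 11 belong to genes that were dim here, such as Mmp3, Mmp12, Mmp13, Mmp1a and Mmp1b. No member window held either capicua octamer, which 1.08% and 1.01% of all windows hold. GC boxes stood in 32.7% and TATA boxes in 12.4% of all windows. A match is a description of the letters and no evidence of binding.

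The other proteoglycan-cleaving ADAMTSs split. Adamts1, a versican-cleaving protease, had log2 levels of 10.37, 9.16 and 8.54 in Cic-/- clones 5 to 7 with EGF, against 8.74, 8.36 and 8.23 without it. Adamts1 in Cic+/+ clones 1 to 4 had 9.33, 10.23, 9.95 and 9.54 with EGF, against 8.69, 8.52, 8.49 and 8.50 without it. It was higher with EGF in all 7 clones, and within Cic+/+ the media did not overlap. The difference was 1.21 ± 0.31 in Cic+/+ clones, with an adjusted p of 0.0891 without and 0.0128 with the block (limma).

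Adamts9 and Adamts20, which also cut versican, differed by 0.63 ± 0.16 and 0.49 ± 0.16 in Cic+/+ clones, with adjusted p-values of 0.0904 and 0.185 without the block and 0.0113 and 0.0352 with it (limma). Adamts5, the other aggrecanase, ran the opposite way and was lower with EGF in all 7 clones, by a mean of 0.90 in Cic-/- and 0.51 in Cic+/+ clones on the log2 scale. Its adjusted p-values were 0.323 and 0.472 without the block and 0.0644 and 0.172 with it (limma). Adamts8 and Adamts15 differed by less than 0.25 in either genotype.

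Among procollagen N-propeptidases, Adamts14 had the wide EGF difference. Adamts14 read 7.74, 8.20 and 8.98 in Cic-/- clones 5 to 7 with EGF, against 6.71, 6.37 and 8.01 in the same clones without it. Adamts14 read 8.19, 8.002, 7.42 and 7.16 in Cic+/+ clones 1 to 4 with EGF, against 7.05, 6.18, 6.09 and 5.69 without it. It was higher with EGF in each clone, by 0.97 to 1.83. In Cic+/+ clones the difference was 1.44 ± 0.39 (adjusted p = 0.11 without and 0.0103 with the block, limma). Adamts2, which does the same work on fibrillar procollagens, differed by 0.11 ± 0.17 in Cic-/- and 0.10 ± 0.15 in Cic+/+ clones.

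Adamts7, a protease of cartilage oligomeric matrix protein, differed by 0.91 ± 0.21 with EGF in Cic+/+ clones (adjusted p = 0.0584 without and 0.00504 with the block, limma). Adamtsl3, an ADAMTS-like protein that has no protease domain, differed by 0.81 ± 0.26 (0.184 and 0.0399), but by 0.049 with its brightest probeset, and with the block it missed the threshold without any 1 of clones 1 to 4 (adjusted p = 0.076 to 0.178). The neural adhesion protein gene Adam23 was lower by a mean of 0.62 ± 0.20 (0.178 and 0.034). Adam22 and Adam11 of the same class were lower by 0.42 and 0.35 and did not pass either way.

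The main sheddases of this niche were not among the genes that passed. Adam10, which cuts Notch and the amyloid precursor protein, differed with EGF by 0.41 ± 0.20 in Cic-/- and 0.04 ± 0.17 in Cic+/+ clones. Adam17, which releases TNF and EGF receptor ligands, differed by -0.14 ± 0.21 in Cic-/- and -0.22 ± 0.18 in Cic+/+ clones. Adam9 and Adam15 lay within 0.2 of 0 in both genotypes. Adam12, meltrin alpha, was higher with EGF in all 7 clones, by a mean of 0.32 in Cic-/- and 0.34 in Cic+/+ clones, without passing (adjusted p = 0.668 and 0.427, limma).

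No membrane-type MMP passed for EGF. Mmp15, which encodes MT2-MMP, was higher in all 7 clones, by 0.60 ± 0.20 in Cic-/- and 0.47 ± 0.17 in Cic+/+ clones, and its adjusted p-values with the block were 0.0549 and 0.0545 (limma). Mmp14, the membrane enzyme that activates the MMP2 proenzyme, differed by -0.03 ± 0.34 in Cic-/- and -0.01 ± 0.29 in Cic+/+ clones. Mmp9, gelatinase B, was higher with EGF in all 7 clones, but only by means of 0.21 and 0.27. Timp2, which takes part in MMP2 activation, differed by -0.08 ± 0.25 in Cic-/- and -0.29 ± 0.21 in Cic+/+ clones.

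Timp1, the soluble inhibitor known to respond to growth factors, had the largest mean EGF difference of any tested member in both genotypes, and the clones did not share it evenly. Timp1 had log2 levels of 10.96, 10.74 and 11.56 in Cic-/- clones 5 to 7 with EGF, against 8.01, 6.87 and 10.76 in the same clones without it. Timp1 had 11.998, 10.37, 10.80 and 10.01 in Cic+/+ clones 1 to 4 with EGF, against 11.47, 8.29, 8.26 and 8.18 without it. Clones 1 and 7 stayed high without EGF, at 11.47 and 10.76, while the other 5 clones lay between 6.87 and 8.29. The differences were 2.54 ± 0.94 in Cic-/- and 1.74 ± 0.82 in Cic+/+ clones and did not pass (adjusted p = 0.358 and 0.401 without the block, 0.0789 and 0.123 with it, limma).

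Clones 1 and 7 also had the highest fibroblast and pericyte sums without EGF, 12.17 in clone 7 and 11.46 in clone 1 against 9.18 to 9.99 in the others. Acta2 led that sum, at 12.05 and 11.30 against 8.45 to 9.59, and Rgs5 had 6.87 and 5.89 against 4.44 to 5.44. The other markers above the dim limit did not set both clones apart. Col1a1 had 6.84 and 6.49 against 5.59 to 6.68, and Col1a2 had 5.28 and 5.25 against 4.74 to 5.28. Col3a1 had 5.00 and 5.15 against 4.23 to 5.12, and Pdgfrb had 5.32 and 5.35 against 4.98 to 5.51. The microglia sums of clones 7 and 1 were also the highest without EGF, 9.32 and 9.28 against 8.28 to 8.73. Cd68 led the microglia sum, at 8.57 in clone 7 and 8.54 in clone 1 against 6.38 to 7.49 in the others, while Csf1r had 5.05 and 4.93 against 4.68 to 5.39 and Aif1 and Ptprc were dim. Some genes outside these 2 lists set clones 7 and 1 apart without EGF too. Hbegf had 10.38 and 10.82 against 8.84 to 9.25 in the others, and Nes 9.90 and 10.07 against 8.05 to 8.94. Tnc had 12.12 and 11.79 against 9.47 to 10.61. Nes is a neural stem cell marker, and 2 others of that list were lower in clones 7 and 1. Prom1 had 5.15 and 4.53 against 5.41 to 5.57, and Sox2 had 11.56 and 11.52 against 11.59 to 11.98. These genes are examples, and the share of all genes that set both clones apart was not counted. The neural stem cell sums of clones 7 and 1, 15.30 and 15.44, lay within the 15.26 to 15.53 of the others. The part of fibroblast-like or microglia-like cells, or of any other trait of these 2 clones, in the Timp1 level was not tested. Without clone 7 the Timp1 difference in Cic-/- clones was 3.41, and without clone 1 that in Cic+/+ clones was 2.15. Clones 7 and 1 had the smallest Timp1 differences of their genotypes, 0.80 and 0.52. Leaving them out must therefore widen the mean difference, and a test of the remaining clones cannot count as support.

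In Cic-/- clones Adam19, Adamts4, Mmp2 and Timp4 differed with EGF in the same direction as in Cic+/+ clones, and none passed without the block. Other members passed with the block in Cic+/+ clones only. Among these, the Cic-/- differences of Adamts7, Adamts9, Adamts20 and Adam23 were 0.25 ± 0.24, 0.33 ± 0.18, 0.26 ± 0.18 and 0.07 ± 0.23. The mean Cic-/- differences of Adamts1 and Adamts14 were wider, 0.92 and 1.27. No member of 55 was called, against 0.19% of all genes, while 16 members had an unadjusted p under 0.05, against 9.8% of all genes (limma). With the clone as a block 7 members passed, against 2.08% of all genes (1% higher and 1.08% lower). Adam19 (1.51 ± 0.32, adjusted p = 0.00518), Adamts4 (1.01 ± 0.23, 0.0108), Mmp2 (1.01 ± 0.21, 0.0109), Adamtsl3 (1.36 ± 0.30, 0.0101) and Adamts19 (1.16 ± 0.26, 0.00925) were higher. Timp3 (-1.30 ± 0.38, 0.04) and Timp4 (-0.99 ± 0.29, 0.0319) were lower. These adjusted p-values are from limma with the block, while the SE beside them are from the fit without it. With its brightest probeset alone Adamtsl3 differed by -0.060. With the block and without clone 6, none of the 55 passed. The adjusted p-values of the 7 without the block ran from 0.0686 for Adam19 to 0.232 for Timp4.

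**Figure D3:**
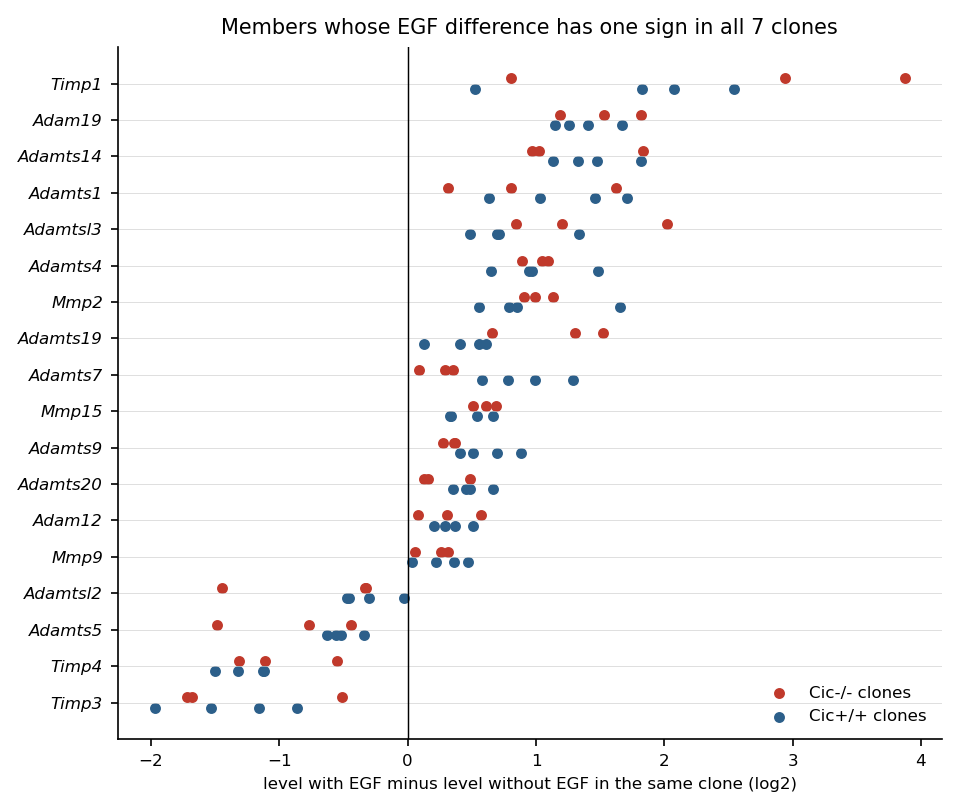
Level with EGF minus level without it in the same clone (log2) for the 18 genes with 1 sign in all 7 clones, with red points for the 3 Cic-/- clones and blue points for the 4 Cic+/+ clones. Timp1 has the widest spread, 0.52 to 3.87, while Adam19 stays between 1.15 and 1.82.

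Adamts19, an ADAMTS with few known substrates, was the member that passed with the block in Cic-/- clones alone; whether the genotypes differ is answered by the interaction given further on. Adamts19 lay at 6.04, 6.02 and 6.03 in Cic-/- clones 5 to 7 with EGF, against 4.74, 4.49 and 5.37 in the same clones without it. Adamts19 lay at 5.52, 5.16, 4.61 and 4.86 in Cic+/+ clones 1 to 4 with EGF, against 4.91, 4.60, 4.20 and 4.73 without it. The Cic-/- cultures with EGF were nearly equal and stood above all other arrays. Adamts19 differed with EGF by 0.42 ± 0.22 in Cic+/+ clones.

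Counted by sign, 14 members were higher with EGF in all 7 clones, against 6.04% of all genes tested, and 4 were lower, against 7.43%. The 14 were Adam12, Adam19, Adamts1, Adamts4, Adamts7, Adamts9, Adamts14, Adamts19, Adamts20, Adamtsl3, Mmp2, Mmp9, Mmp15 and Timp1, and the 4 were Adamts5, Adamtsl2, Timp3 and Timp4. In Cic-/- clones alone 31 members shared 1 sign (36.8% of all genes did), 23 higher and 8 lower, beside 18.2% and 18.6% of all genes. In Cic+/+ clones alone 26 did (28.9% of all genes), 16 higher and 10 lower, beside 13.8% and 15.1%. The median EGF difference over the 55 members was 0.14 in Cic-/- and 0.08 in Cic+/+ clones, against 0.01 and 0.00 over all genes tested.

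The interaction asked whether the EGF difference itself depended on Cic. No member passed (0 of 55, against 0.00576% of all genes without the block and 0.0403% with it), and 5 had an unadjusted p under 0.05, against 2.86% of all genes (limma). For Adam19, Mmp2 and Timp4 the EGF difference in Cic-/- minus that in Cic+/+ clones was 0.14 ± 0.42, 0.05 ± 0.28 and 0.27 ± 0.38, and for Adamts4 the 2 EGF differences were equal to 2 decimals. The widest were Mmp7, matrilysin, at 0.89 ± 0.34, Adamts16 at -0.83 ± 0.36, Mmp16 at -0.81 ± 0.44 and Timp1 at 0.80 ± 1.25, and with the brightest probeset Mmp7 and Adamts16 changed sign, to -0.23 and 0.20. Adamts19, at 0.74 ± 0.34, had an adjusted p of 1 without and 0.68 with the block.

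**Figure D4:**
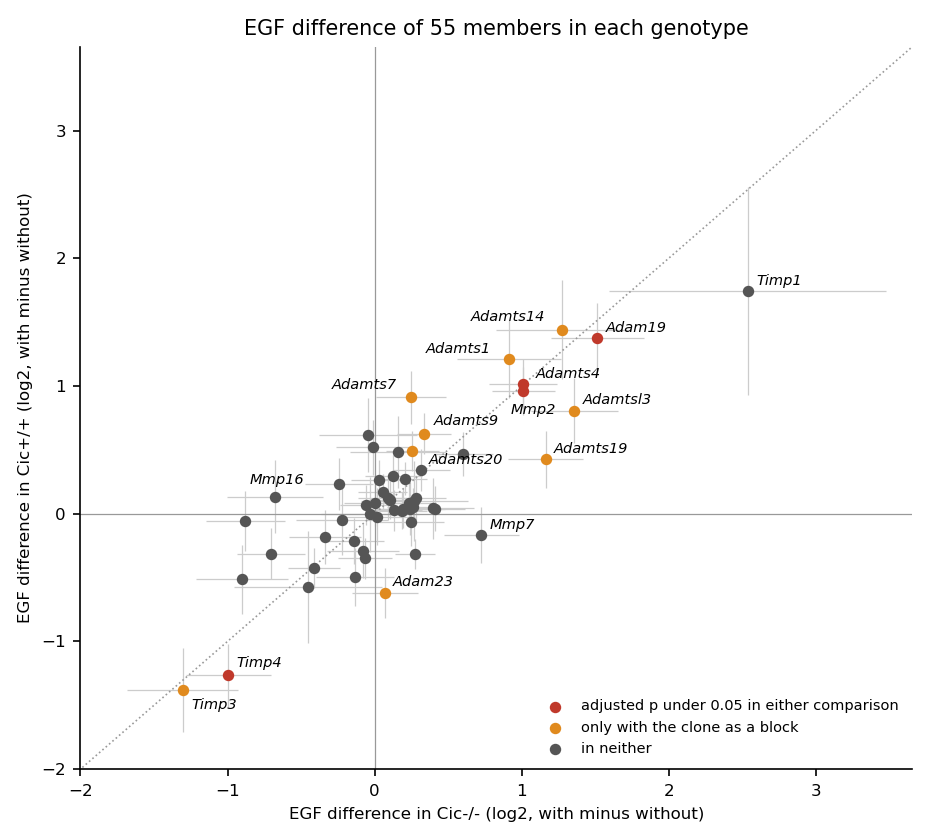
EGF difference of each of the 55 tested members in Cic-/- clones (x axis, log2 ± SE) and in Cic+/+ clones (y axis, log2 ± SE), with a dotted line of equality. Red points passed in either comparison, orange points passed only with the clone as a block, and Adam19, Adamts4, Mmp2, Timp3 and Timp4 lie near the line.

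Loss of Cic was compared in each medium. Without EGF, Adamts16 was the 1 member of 55 that rose in Cic-/- cultures, against 0.553% of all genes called (0.127% higher). It encodes a secreted protease whose substrates are less well known than those of the aggrecanases. Adamts16 with EGF was at 6.19, 6.07 and 5.79 in Cic-/- clones 5 to 7, against 5.24, 5.85, 5.21 and 5.28 in Cic+/+ clones 1 to 4. Adamts16 without EGF was at 7.18, 6.86 and 6.65 in the Cic-/- clones, against 5.80, 5.43, 5.82 and 4.74 in the Cic+/+ clones. All Cic-/- cultures without EGF were above all Cic+/+ cultures without it, whereas with EGF clone 7 lay below clone 2. Adamts16 rose 2.73-fold without EGF (adjusted p = 0.0159 without and 0.0173 with the block, limma), and 19 of its 21 probesets pointed that way. With EGF the difference was 0.62 ± 0.25 (adjusted p = 0.385). Its brightest probeset alone differed by 0.29 without EGF (adjusted p = 0.752), and without clone 5 or clone 6 the adjusted p was 0.0731 or 0.0759. With the block it was 0.053, 0.0523, 0.0818 and 0.0851 without clone 2, 4, 5 and 6 in turn. Fitted on the 7 arrays compared, with no other group to share the spread, it was 0.12. Oligodendrocyte markers moved with genotype in this medium. Of the 7 myelinating markers 5 fell in Cic-/- cultures, against 0.553% of all genes called in either direction, with a median of -2.35 over the 7. Their sums were 9.32 to 9.59 in Cic-/- against 10.94 to 11.47 in Cic+/+ cultures. The part of these markers in the genotype differences without EGF was not tested.

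With the clone as a block 3 members passed in this medium, against 0.697% of all genes (0.19% higher), since Adamts5 and Adamtsl1 joined Adamts16. Adamts5 with EGF had levels of 5.98, 6.51 and 6.01 in Cic-/- clones 5 to 7, against 5.06, 5.93, 4.72 and 5.03 in Cic+/+ clones 1 to 4. Adamts5 without EGF had 6.75, 6.95 and 7.50 in the Cic-/- clones, against 5.58, 6.27, 5.28 and 5.66 in the Cic+/+ clones. Every Cic-/- culture exceeded every Cic+/+ culture of the same medium. The Adamts5 difference was 1.37 ± 0.29 without EGF (adjusted p = 0.0529 without and 0.0344 with the block) and 0.99 ± 0.29 with EGF (0.207 and 0.159, limma). All 10 of its probesets were higher in Cic-/- cultures without EGF. Leaving out any 1 clone other than clone 2 gave adjusted p-values of 0.0545 to 0.124 with the block.

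Adamtsl1, or punctin, is a matrix protein related to ADAMTSs that has no protease domain. Adamtsl1 with EGF measured 6.32, 6.01 and 5.81 in Cic-/- clones 5 to 7, against 5.74, 5.19, 5.54 and 5.48 in Cic+/+ clones 1 to 4. Adamtsl1 without EGF measured 6.24, 6.42 and 6.21 in the Cic-/- clones, against 5.32, 4.61, 5.48 and 5.61 in the Cic+/+ clones. The genotypes did not overlap in either medium. The difference was 1.04 ± 0.22 without EGF (adjusted p = 0.0507 without and 0.0417 with the block) and 0.56 ± 0.22 with EGF (0.371 and 0.348, limma). Adamtsl1 did not pass with the block once any 1 of the 7 clones was left out (adjusted p = 0.0565 to 0.189).

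**Figure D5:**
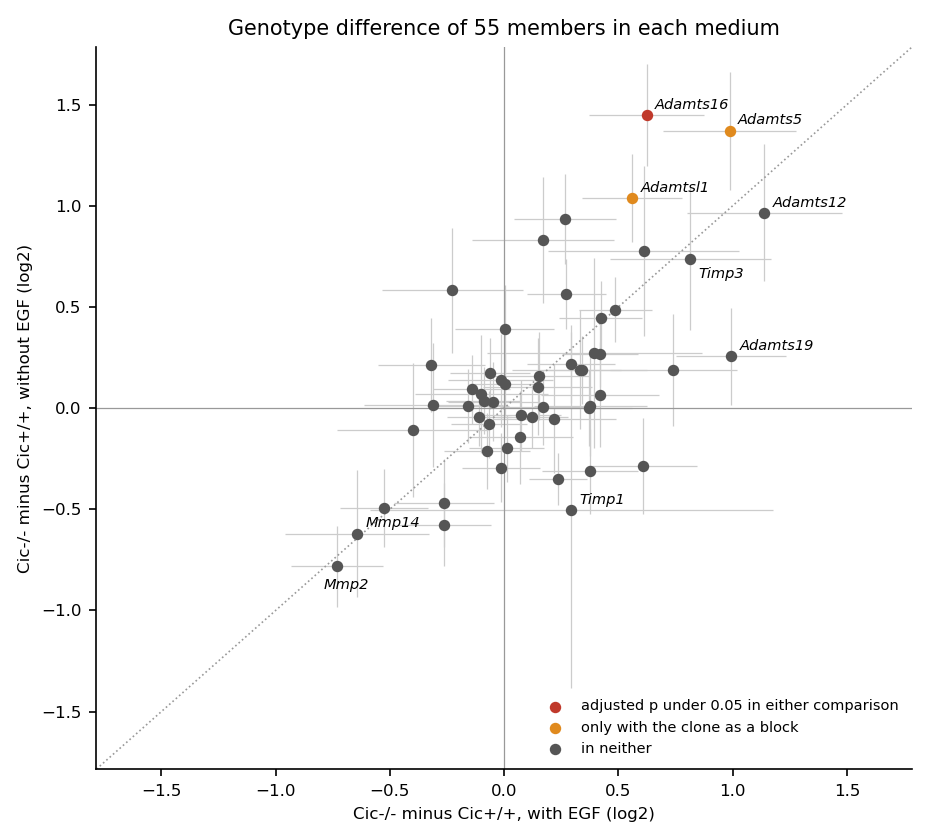
Genotype difference (Cic-/- minus Cic+/+, log2 ± SE) of each of the 55 tested members with EGF (x axis) and without EGF (y axis), with a dotted line of equality. Adamts16 (red) passed without EGF and Adamts5 and Adamtsl1 (orange) passed there only with the clone as a block, while Mmp2 lies at the lower left with -0.73 and -0.78.

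With EGF no member passed (0 of 55, against 0.317% of all genes without and 0.363% with the block), and 13 had an unadjusted p under 0.05, against 10.6% of all genes (limma). The widest difference was that of Adamts12, a protease related to Adamts7. Adamts12 with EGF stood at 9.29, 8.92 and 7.93 in Cic-/- clones 5 to 7, against 7.24, 7.96, 7.79 and 7.31 in Cic+/+ clones 1 to 4. Adamts12 without EGF stood at 8.69, 8.95 and 7.69 in the Cic-/- clones, against 7.58, 7.28, 7.85 and 7.21 in the Cic+/+ clones. Clone 7 lay apart from clones 5 and 6 and, with EGF, below clone 2. The difference was 1.14 ± 0.34 with EGF (adjusted p = 0.209) and 0.96 ± 0.34 without EGF (0.291). Without clone 7 it was 1.53 with EGF, with an adjusted p of 0.0292 (limma). Clone 7 had the lowest Adamts12 level of the Cic-/- clones, so leaving it out must widen the difference. A test of the remaining clones therefore cannot count as support. Without any 1 of the other 6 clones the difference was 0.85 to 1.27, with adjusted p-values of 0.309 to 0.43 (limma).

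Mmp2, whose values are given above, was lower in Cic-/- cultures, and no array overlapped in either medium. With EGF it had 6.16 to 6.59 in Cic-/- cultures, against 6.75 to 7.24 in Cic+/+ cultures. Without EGF it had 5.25 to 5.46 in Cic-/- cultures, against 5.55 to 6.39 in Cic+/+ cultures. The differences were -0.73 ± 0.20 with EGF and -0.78 ± 0.20 without (adjusted p = 0.169 and 0.123, limma). With the mean of its probesets in place of the median they were -1.07 and -0.56 (adjusted p = 0.0191 and 0.194). Mmp14 had -0.64 ± 0.31 and -0.62 ± 0.31 in the same 2 comparisons (adjusted p = 0.49 and 0.516).

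Over both media, Adamts2, Adamts5 and Adamtsl1 did not overlap between the genotypes in either medium and were higher in the Cic-/- arrays (1.13% of all genes were), and Mmp2 was lower (1.55% were). With EGF alone 11 members did not overlap, 10 higher and 1 lower, against 11.7% of all genes (5.81% and 5.91%), and without EGF 12 did not, 7 higher and 5 lower, against 9.38% (4.2% and 5.18%). Timp3 differed by 0.82 ± 0.35 with EGF and 0.74 ± 0.35 without (adjusted p = 0.428 and 0.477, limma). The other 3 TIMPs lay within 0.3 of 0 with EGF, and Timp1 without EGF had -0.50 ± 0.88.

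Other genes of these pathways were read from lists of partners, activators, substrates and related proteases, and no gene of the 6 lists passed in any comparison without the block. Tnc, the matrix glycoprotein tenascin C, had 12.40, 12.59 and 13.05 in Cic-/- clones 5 to 7 with EGF, against 10.01, 10.61 and 12.12 without it. Tnc in Cic+/+ clones 1 to 4 had 12.87, 11.96, 12.06 and 11.75 with EGF, against 11.79, 9.79, 10.07 and 9.47 without it. It was higher with EGF in all 7 clones, by 1.77 ± 0.57 in Cic-/- and 1.88 ± 0.49 in Cic+/+ clones (adjusted p = 0.0458 and 0.00977 with the block, 0.274 and 0.0963 without, limma).

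Bcan, which encodes the lectican brevican, a substrate of ADAMTS4 and ADAMTS5, went the other way. Bcan had 10.84, 10.55 and 10.21 in Cic-/- clones 5 to 7 with EGF, against 11.62, 11.38 and 11.07 without it. Bcan in Cic+/+ clones 1 to 4 had 9.97, 10.50, 10.43 and 10.63 with EGF, against 10.92, 11.45, 11.18 and 11.20 without it. The media did not overlap in either genotype, and the differences were -0.82 ± 0.22 in Cic-/- and -0.80 ± 0.19 in Cic+/+ clones (adjusted p = 0.0183 and 0.00523 with the block, 0.175 and 0.0677 without, limma). Of the 11 tested lecticans and partners, 3 passed with the block in Cic-/- clones (Tnc and Hapln4 higher, Bcan lower), against 2.08% of all genes, and 3 in Cic+/+ clones (Tnc higher, Bcan and Tnr lower), against 5.17%. The median difference of the list was -0.01 in Cic-/- and -0.13 in Cic+/+ clones. Bcan also stands in the oligodendrocyte progenitor list.

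Of the 19 tested membrane substrates of sheddases, Jag1, a Notch ligand, passed with the block in Cic-/- clones (1.28 ± 0.38 with EGF, adjusted p = 0.0362), 1 of 19 against 2.08% of all genes. Tgfa, an EGF receptor ligand released by ADAM17, and Epha4 passed in Cic+/+ clones and were lower with EGF (-1.18 ± 0.29 and -0.82 ± 0.26, adjusted p = 0.013 and 0.0491), 2 of 19 against 5.17%. Notch2 passed between genotypes without EGF, 1.06 ± 0.24 higher in Cic-/- cultures (adjusted p = 0.0447 with and 0.0727 without the block, limma), 1 of 19 against 0.697%. The 10 tested inhibitors and cofactors passed for EGF only with the block. Pcolce2, an enhancer of procollagen C-proteinase, passed in Cic-/- clones (1.26 ± 0.34), 1 of 10 against 2.08% of all genes. Thbs2 (1.28 ± 0.31) and Lrp1 (-0.74 ± 0.26), which take part in clearing MMP2 and other proteases, passed in Cic+/+ clones. These were 1 higher and 1 lower of 10, against 5.17% of all genes in either direction. Ece2 was lower with EGF in both genotypes (-0.64 ± 0.19 in Cic-/- and -0.49 ± 0.16 in Cic+/+ clones). It passed with the block in both, 1 of 5 tested related proteases, against 2.08% and 5.17% of all genes. None of the 10 partners of ADAM10 and ADAM17 or of the 11 tested convertases and plasminogen system genes passed in any comparison, with or without the block.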

How the data were processed

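RNA from 14 cultures (7 clones, each with and without EGF) was measured on Affymetrix arrays. The deposited values are log2 levels per probeset, made by the authors with RMA, per the submitters' processing notes, so background correction and quantile normalization had been applied before deposit. No version of RMA is stated in those notes. Probesets numbered 269751, of which 233753 named 1 gene, and the gene value was the median of those, with a median of 14 probesets per member. Of the members' probesets, 5 also named another gene and were left out. Genes whose mean level fell in the lowest 25% (a limit of 4.40) were set aside as dim, and 17364 remained.

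The model was fitted in limma 3.58.1 (R 4.3.3, with version 1.17.8 of data.table) as 4 group means without a block, with Benjamini-Hochberg adjustment over all 17364 genes. The words rose and fell are kept for genes that passed without a block. Errors of changes are SE from the fit without a block, also where the adjusted p-value beside them is from the fit with the block. The labels give 1 clone number to the 2 cultures of an animal, which pairs them, and the 2 arrays of a clone deviated together from their group means (r from 0.156 to 0.616). The clone was therefore also fitted as a random block (consensus correlation 0.348) and as a fixed one. Figures and promoter searches used Python 3.11.15, pandas 2.3.3 and matplotlib 3.10.9. On simulated data for the EGF difference in Cic+/+ clones (17364 genes, 200 changed), changes of 0.5, 1 and 2 (log2) were recovered at 5.97%, 71.6% and 93.9%, and with the block at 14.9%, 80.6% and 100%. False calls there were 3 of 117 genes called without the block and 17 of 147 with it. For EGF in Cic-/- clones they were 0 of 101 without the block and 4 of 124 with it. For the genotypes without EGF they were 11 of 118 without the block and 8 of 113 with it.

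The members, the role and pathway lists and the rule for named genes were chosen with earlier results of these data known. The rule names 43 members: those that pass with or without the random block, the 3 of highest mean level in each role, 15 fixed ones and those with the 3 widest changes each way in every comparison. All 43 are in the heat map and fewer are described. Some genes of the lists are not reported here. Alternatives tried were the probesets' mean, the brightest probeset, other dim limits, centring, quantile normalization, a trended robust prior, only the arrays compared, the clone blocks and leaving out each clone. Leaving out each clone with the block was added after seeing the data.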

Additional observations from a re-analysis of the deposited data

Results flagged for a closer look

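Of 129 comparisons of 1 culture or clone with its 4-member Cic+/+ group by Dixon's test, 6 stood apart, and chance alone flags about 1 in 20. Timp1 in clone 1 without EGF had a log2 level of 11.47, against 8.18 to 8.29 in the other 3 Cic+/+ clones. Adamts1 in clone 1 without EGF had 8.69, against 8.49 to 8.52, and Mmp21 there had 5.20, against 4.57 to 4.65. Adamts16 in clone 2 with EGF had 5.85, against 5.21 to 5.28. The difference with EGF minus without was -0.40 for Mmp10 in clone 3, against 0.30 to 0.43, and -0.30 for Mmp21 in clone 1, against 0.42 to 0.47.

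In 2 members every Cic-/- clone moved one way with EGF and every Cic+/+ clone the other, and they were picked by sign alone, in a step where the difference was not tested. The share of all genes with such opposite signs was not counted, so the 2 cannot be read as a result about the members. Mmp16, membrane-type MT3-MMP, was lower with EGF in each Cic-/- clone and higher in each Cic+/+ clone, a difference between the genotype means of -0.81, to which clone 7 contributed an EGF difference of -1.59. Mmp27 was higher in each Cic-/- clone and lower in each Cic+/+ clone, a difference of 0.59. The limma interaction, which tests this difference, gave both an adjusted p of 1.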

How the results depend on the processing

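Over 24 alternatives, 766 values kept their direction and side of the threshold, 130 passed where the reported one did not, 31 no longer passed and 5 reversed. The 5 reversed values all came from the brightest probeset: the interaction of Adamts16 (0.20) and Mmp7 (-0.23), Adamtsl3 with EGF in Cic-/- clones (-0.060), and the genotype differences of Adamtsl5 without EGF (0.17) and Mmp23 with EGF (0.10). The cause was not tested.

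The share of all genes called moved with the fit too. With the random block it went from 0.898% to 5.17% for EGF in Cic+/+ clones and from 0.19% to 2.08% in Cic-/- clones. For the genotypes without EGF it went from 0.553% to 0.697%. For the other alternatives that share is not given here, so their counts alone are no result about the members. Counts of members called moved as follows. For EGF in Cic+/+ clones the 4 became 1 with the brightest probeset, 12 with the random block and 15 with the fixed block, and 0 to 8 with 1 clone left out: 0 without clone 1, 2, 3 or 4, 1 without clone 6, 6 without clone 5 and 8 without clone 7. With the random block and 1 clone left out the count was 5 to 14 (7 without clone 3, 11 without clone 7, 12 without clone 5 or 6, 14 without clone 1), and Adam19, Adamts4, Adamts7, Mmp2 and Timp4 passed in all 7 of these fits. For EGF in Cic-/- clones the 0 became 2 with the mean of the probesets, 7 with the random block, 11 with the fixed block and 0 to 1 with 1 clone left out, and 0 to 9 with both, 0 of them without clone 6. For the genotypes without EGF the 1 became 3 with the mean of the probesets or the random block, 2 with centring or quantile normalization, 0 with the brightest probeset, the stricter dim limit of 50% or only the arrays compared, and 0 to 3 with 1 clone left out, with or without the block. For the genotypes with EGF the 0 became 1 with the mean of the probesets (Mmp2) and 0 to 1 with 1 clone left out, with or without the block (Adamts12, without clone 7). The interaction kept 0 in every alternative run. The fixed block cannot give a genotype difference.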
